A study of Mus musculus with 28 samples.

Results

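The Egr and Nr4a genes are 2 families of immediate early transcription factors, 4 Egr genes (Egr1, Egr2, Egr3 and Egr4) and 3 Nr4a genes (Nr4a1, Nr4a2 and Nr4a3), followed here in the dorsal hippocampus of male C57Bl6 mice after auditory fear conditioning under glucocorticoid receptor ligands. They were taken by symbol from the deposited gene count table, where they make up 7 of 50686 genes, and all 7 were among the 16735 genes with enough counts to test. There were 28 RNA-seq libraries in 6 groups. The conditioned groups were Cort (a glucocorticoid receptor ligand by the study's design, which the labels name only in this short form, n = 5), RU486 (mifepristone, a glucocorticoid and progesterone receptor antagonist, n = 5), C108 and C118 (compounds known here only by code, n = 5 each) and Vehicle (n = 4). Basal mice had neither conditioning nor treatment (n = 4). No group without conditioning received a ligand or the vehicle, so the effects of conditioning and of being treated cannot be told apart in any comparison with Basal. The sources used here state no dose, route, age or time of dissection. The labels do not say whether each library came from a separate mouse, so p-values measure the spread between these libraries, which may in part be technical.

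Egr proteins are zinc finger factors that bind a GC-rich element. Their genes are switched on within minutes of neuronal activity by the MAP kinase pathway, through serum response factor at CArG boxes and through CREB. Egr1, also called Zif268, is the best studied of them in hippocampal plasticity and in the consolidation and reconsolidation of fear memory, Egr2 and Egr3 are induced with other kinetics, and Egr4 is the remaining member. Nr4a1 (Nur77), Nr4a2 (Nurr1) and Nr4a3 (Nor-1) are orphan nuclear receptors whose activity is set mainly by how much of them is made. They are CREB targets in the hippocampus and are needed there for lasting contextual memory.

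The sequences before the start sites of 5 of the genes were taken from the RefSeq promoter table of GRCm38.p6, and are shown because the CREB core that the Nr4a genes share stands out in them. Capitals mark the cAMP response element core TGACG on either strand (CGTCA where it lies on the other strand) and, in Egr2, also the CArG box that serum response factor binds. The table's windows run from 250 bases before a start site to 50 after it, and the parts outside annotated exons are printed. For Egr3 and Egr1 none is printed.
Nr4a1 upstream, chr15:101266596-101266845, plus strand: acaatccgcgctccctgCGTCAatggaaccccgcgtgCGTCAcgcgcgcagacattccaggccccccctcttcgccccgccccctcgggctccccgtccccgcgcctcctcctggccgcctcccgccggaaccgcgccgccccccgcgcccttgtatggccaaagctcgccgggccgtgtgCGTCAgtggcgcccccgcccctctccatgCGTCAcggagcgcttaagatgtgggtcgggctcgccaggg
Nr4a2 upstream, chr2:57124004-57124253, minus strand: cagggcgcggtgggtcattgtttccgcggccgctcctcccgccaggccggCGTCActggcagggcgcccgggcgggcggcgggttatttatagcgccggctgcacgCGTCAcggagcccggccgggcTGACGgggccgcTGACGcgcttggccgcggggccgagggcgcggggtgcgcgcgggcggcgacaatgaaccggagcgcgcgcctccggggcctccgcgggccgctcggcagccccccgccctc
Nr4a3 upstream, chr4:48045055-48045152, plus strand: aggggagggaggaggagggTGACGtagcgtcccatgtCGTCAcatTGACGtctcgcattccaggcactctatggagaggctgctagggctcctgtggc
Egr4 upstream, chr6:85513590-85513839, minus strand: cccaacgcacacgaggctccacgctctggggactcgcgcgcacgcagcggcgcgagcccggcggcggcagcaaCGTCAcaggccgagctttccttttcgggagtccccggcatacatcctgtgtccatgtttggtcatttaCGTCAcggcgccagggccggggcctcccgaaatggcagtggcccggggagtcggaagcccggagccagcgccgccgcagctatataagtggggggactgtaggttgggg
Egr2 upstream, chr10:67537619-67537868, plus strand: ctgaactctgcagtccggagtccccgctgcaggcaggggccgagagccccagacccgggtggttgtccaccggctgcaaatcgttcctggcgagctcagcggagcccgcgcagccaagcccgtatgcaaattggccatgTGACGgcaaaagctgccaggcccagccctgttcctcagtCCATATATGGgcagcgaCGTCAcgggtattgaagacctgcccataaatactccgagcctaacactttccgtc

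Each of the 3 Nr4a windows held 4 copies of TGACG. At least 4 copies were in 76 of all 32851 promoter windows of the same length (0.231%), whereas at least 1 copy was in 20.8% of them. In Nr4a3 the printed stretch, which ends 152 bases before the RefSeq start site, holds 3 of the 4 and the fourth lies in exonic sequence. The Egr4 window held 2 copies, and so did the Egr2 window shown, 1 of 5 in the table for that gene, with its CArG box between them. At least 2 copies were in 5.01% of windows and a CArG box in 1.63%. The full palindrome TGACGTCA, found in 1.79% of windows, was in none of the members' windows. These are matches of letters and not measured binding sites.

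In GRCm38 coordinates of the GENCODE M21 annotation, Egr1 lies on chromosome 18 (34859823 to 34864984), Egr2 on chromosome 10 (67535475 to 67542188), Egr3 on chromosome 14 (70077203 to 70082614) and Egr4 on chromosome 6 (85511121 to 85513589, minus strand). Nr4a1 lies on chromosome 15 (101254269 to 101274795), Nr4a2 on chromosome 2 (57106830 to 57124003, minus strand) and Nr4a3 on chromosome 4 (48045153 to 48086447). All are protein coding, no other annotated gene overlaps them, and levels per kilobase use the length of their merged exons.

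Library depth ran from 16.2 to 20.3 M counts in genes (M, 10 to the power of 6), and the 7 genes were covered by between 5 counts (Egr2 in RU486 12) and 4329 counts (Egr1 in Cort 4) per library. Levels are in CPM, counts per M of effective library size after TMM scaling. Markers of the labelled tissue were present, as summed CPM of 12 CA1 genes was from 924.9 to 1983 and of 15 dentate gyrus genes from 1016 to 1535 over all libraries. Some libraries also differed in markers of regions next to the hippocampus. Summed CPM of 15 thalamus markers was 1124 in Vehicle 16 and 620.5 in Vehicle 3, against 223.6 to 567.6 in the other libraries. Vehicle 16 had the lowest CA1 sum (924.9), and Vehicle 29 had the highest sum of 17 neocortex markers (829.2) and the lowest dentate gyrus sum (1016). In bulk tissue, fewer cells of a type and less RNA per cell cannot be told apart.

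Per kilobase of exon, Egr1 was the most abundant of the 7 in every group mean, at 29.2 CPM per kb over all libraries. Nr4a1 followed at 15.3, then Nr4a3 at 11.6, Nr4a2 at 11.4, Egr3 at 9.11, Egr4 at 6.70 and Egr2 at 0.347 CPM per kb. Nr4a3 and Nr4a2 did not differ beyond their spread in the ligand groups (Cort, 10.7 ± 1.91 and 9.65 ± 2.59 CPM per kb, SD, n = 5). In Basal the order of the Nr4a genes was another one, with Nr4a3 at 15.3 ± 2.25, Nr4a1 at 13.5 ± 0.488 and Nr4a2 at 12.8 ± 1.18 CPM per kb (SD, n = 4). Egr2, which in brain is low at rest, had 5 to 91 counts per library, so its values carry the largest counting error.

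**Figure D1:**
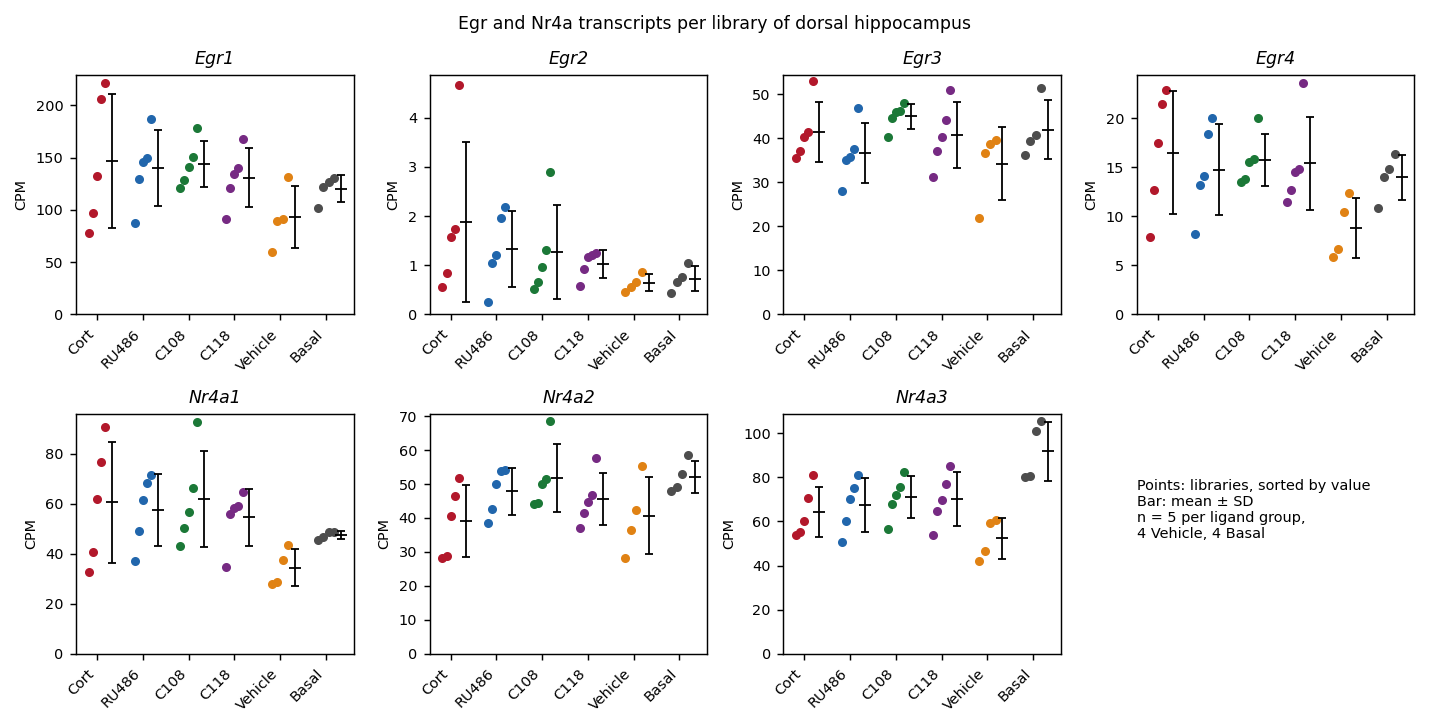
CPM of each gene (y axis, from 0) in every library of the 6 groups (x axis), with points for libraries sorted by value and black bars for the mean ± SD (n = 5 per ligand group, 4 Vehicle and 4 Basal). Nr4a3 is lower in all 4 Vehicle libraries (42.0 to 60.9 CPM) than in all 4 Basal libraries (79.95 to 105.6 CPM), and Nr4a1 is widely spread in the conditioned groups and tight in Basal.

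The comparison of Vehicle with Basal asks what conditioning, together with vehicle treatment, changed without an administered ligand. Nr4a3 was the only one of the 7 that passed, and it was lower. Nr4a3 had 59.4, 42.0, 60.9 and 46.8 CPM in Vehicle 3, 16, 23 and 29, against 100.9, 79.95, 105.6 and 80.4 CPM in Basal 1, 9, 14 and 27. The groups did not overlap. The log2 fold change was -0.81 ± 0.16 (SE), with a 95% interval of -1.14 to -0.49 (adjusted p = 0.00261, edgeR). Over all tested genes 4.11% passed in this comparison, 2.47% as lower, and in 5.76% every Vehicle library lay below every Basal library.

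All 7 genes had lower fitted means in Vehicle, with a median log2 fold change of -0.37 beside 0.00 over all tested genes. Nr4a1 had 37.3, 28.9, 43.7 and 27.99 CPM in Vehicle 3, 16, 23 and 29, against 48.8, 45.4, 48.8 and 46.6 CPM in Basal 1, 9, 14 and 27. Its groups did not overlap either, but its log2 fold change of -0.46 (95% interval -1.02 to 0.10) did not pass (adjusted p = 0.402, edgeR). Egr4 had 10.4, 6.67, 12.3 and 5.83 CPM in the same Vehicle libraries, against 14.8, 13.97, 16.3 and 10.9 CPM in the Basal ones. The Egr4 groups overlapped through Vehicle 23 alone, and its log2 fold change was -0.67 (95% interval -1.28 to -0.06, adjusted p = 0.223). Egr1, a gene often read as a mark of recent neuronal activity, averaged 93.0 ± 29.4 CPM in Vehicle, against 120.2 ± 12.8 CPM in Basal (SD, n = 4 each, adjusted p = 0.528, edgeR). Egr3 averaged 34.2 ± 8.32 CPM in Vehicle and 42.0 ± 6.61 CPM in Basal (adjusted p = 0.36, edgeR), and Nr4a2 averaged 40.6 ± 11.3 CPM in Vehicle and 52.1 ± 4.80 CPM in Basal (adjusted p = 0.326, edgeR). Egr2 averaged 0.642 ± 0.173 CPM in Vehicle and 0.726 ± 0.252 CPM in Basal (adjusted p = 0.93, edgeR).

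Whether Nr4a3 passed in Vehicle depended on 2 libraries and on the covariates. Without Vehicle 16 and 29, 2 of the 3 Vehicle libraries that stood apart in the region markers, the log2 fold change was -0.61 (adjusted p = 0.0995, edgeR). Without Vehicle 3, the other one, it was -0.88 (adjusted p = 0.00408). With the dentate gyrus and CA1 marker scores as covariates, a fit chosen after the data were seen, it was -0.60 (adjusted p = 0.161). With the thalamus and neocortex scores it was -0.85 (adjusted p = 0.00263), and on leaving out each of the 8 libraries in turn it ran from -0.89 to -0.72 (adjusted p = 0.00187 to 0.0181). Of the 15 dentate gyrus markers 4 were lower in Vehicle and 0 higher (Trpc6, Plk5, C1ql2 and Tdo2), with summed CPM of 1016 to 1326 in Vehicle and 1248 to 1514 in Basal. Among the 12 CA1 markers Man1a and Ndst4 were lower and 0 were higher, with summed CPM of 924.9 to 1736 in Vehicle and 1543 to 1815 in Basal. Of the 15 thalamus markers 1 was higher (Rora) and all had a log2 fold change above 0, with summed CPM of 269.8 to 1124 in Vehicle and 296.8 to 414.4 in Basal. Of the 17 neocortex markers 1 was lower (Tle4), with summed CPM of 499.8 to 829.2 in Vehicle and 625.4 to 682.8 in Basal. The 12 CA3 and CA2 and the 10 choroid plexus markers had none past the threshold in edgeR (1 and 0 at an unadjusted p under 0.05, beside 18.1% of all tested genes), with choroid plexus markers at a median log2 fold change of 1.07. Of 10 markers each, 1 was lower for endothelial cells (Kdr), oligodendrocytes (Sox10) and neurons (Neurod6), 1 was higher for astrocytes (Gjb6) and none passed for microglia, with 2 of those at an unadjusted p under 0.05. No marker of these lists was at 0 in all libraries. Beyond these fits, the part of the region markers in the Nr4a3 difference was not tested.

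Nr4a3 had a mean below Basal in each ligand group as well, and passed in Cort. In Cort it had 70.7, 53.9, 55.4, 60.1 and 80.9 CPM in Cort 4, 11, 17, 30 and 36, against the Basal range of 79.95 to 105.6 CPM. Only Cort 36 reached into that range. The log2 fold change of Cort against Basal was -0.52 ± 0.15 (SE; 95% interval -0.82 to -0.21, adjusted p = 0.0344, edgeR), where 6.27% of tested genes passed, 3.43% as lower. That call was lost without Basal 1 (adjusted p = 0.126), Basal 14 (0.145), Cort 11 (0.089), Cort 17 (0.0817) or Cort 30 (0.0782), with no filter on low counts (0.0864) and with the dentate gyrus and CA1 scores (0.146). At an unadjusted p under 0.05 there were 3 members in Cort against Basal, beside 19.5% of tested genes. Besides Nr4a3 they were Nr4a2, at a log2 fold change of -0.41 (95% interval -0.78 to -0.04), and Egr2, at 1.38 (0.26 to 2.49). Neither passed (adjusted p = 0.19 and 0.139, edgeR).

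In RU486 Nr4a3 had 75.4, 50.6, 60.2, 81.3 and 70.1 CPM in RU486 6, 12, 19, 25 and 32. Its log2 fold change against Basal was -0.44 (95% interval -0.75 to -0.14, adjusted p = 0.0752, edgeR). In C108 it had 56.8, 75.5, 71.9, 82.3 and 67.99 CPM in C108 8, 21, 26, 34 and 39, at -0.37 (95% interval -0.68 to -0.07, adjusted p = 0.137, edgeR). In C118 it had 77.2, 64.6, 53.6, 69.9 and 85.4 CPM in C118 7, 13, 20, 33 and 38, at -0.39 (95% interval -0.69 to -0.08, adjusted p = 0.144, edgeR). In each of these 3 groups 4 of 5 libraries lay below every Basal library and 1 lay within the Basal range. None of the 3 differences passed in edgeR, where 5.45%, 6.04% and 3.87% of tested genes passed for RU486, C108 and C118. At an unadjusted p under 0.05 Nr4a3 was the 1 member in each of them, beside 22%, 21.8% and 18.9% of tested genes. DESeq2 called Nr4a3 in RU486 (adjusted p = 0.0474) and in neither C108 nor C118, and limma-voom called no member in the 3.

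Averaged over the 5 conditioned groups, Nr4a3 was lower than in Basal by 0.51 ± 0.12 on the log2 scale (log2 fold change -0.51, SE 0.12, 95% interval -0.74 to -0.27, adjusted p = 0.00457, edgeR). In this comparison 11.2% of tested genes passed, 6.29% as lower. Of the 24 conditioned libraries, 20 lay below the lowest Basal library and 0 above the highest. The average was not called without Basal 14 (adjusted p = 0.0507) or with the dentate gyrus and CA1 scores (-0.40, adjusted p = 0.0609). Markers of other cells and regions moved with this comparison. Of 10 endothelial markers 5 were lower, among them Kdr, Cldn5, Tek and Slco1a4, with a median log2 fold change of -0.67. Their summed level was 66.2 to 154.7 CPM in Cort, 89.4 to 152.8 CPM in RU486, 47.0 to 138.5 CPM in C108, 48.5 to 136.5 CPM in C118 and 103.0 to 143.2 CPM in Vehicle, against 136.0 to 193.0 CPM in Basal. Of the 17 neocortex markers 5 were lower, and of the 15 dentate gyrus markers 5 were lower and 1 higher. Among CA1 markers Man1a and Ndst4 were lower (log2 fold changes -0.64 and -0.35, adjusted p = 0.000375 and 0.0414, edgeR). Among CA3 and CA2 markers Amigo2 was higher (0.54, adjusted p = 0.00655, edgeR). Of 10 markers each, 1 oligodendrocyte marker was lower (Sox10), 1 microglia marker lower (Cx3cr1), and 1 astrocyte marker lower (Sox9) and 1 higher (Gjb6). Apart from the dentate gyrus and CA1 and the thalamus and neocortex covariate fits, the part of these markers was not tested. Nr4a3 was likewise the 1 member with a difference among the 6 groups (adjusted p = 0.0322, edgeR F test), where 4.73% of tested genes passed. These comparisons share the 4 Basal libraries, and the values of the ligand groups against Basal are therefore not independent of one another.

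None of the other 6 genes passed in the average in edgeR or limma-voom, nor at an unadjusted p under 0.05, which 25.4% of tested genes met. Of the 24 conditioned libraries, Nr4a1 was above the highest Basal library in 15 and below the lowest in 9, so that no conditioned library fell into the narrow Basal range of 45.4 to 48.8 CPM. Egr1 was above it in 13 and below in 7, and Egr2 above in 12 and below in 1. Nr4a2 was below the Basal range in 15 and above in 1. For Egr3 the counts were 1 above and 6 below, and for Egr4 7 above and 5 below. Averaged over conditioned groups, the log2 fold changes against Basal were 0.10 for Egr1, 0.68 for Egr2, -0.09 for Egr3, -0.01 for Egr4, 0.15 for Nr4a1 and -0.22 for Nr4a2 (adjusted p = 0.348 to 0.985, edgeR).

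**Figure D2:**
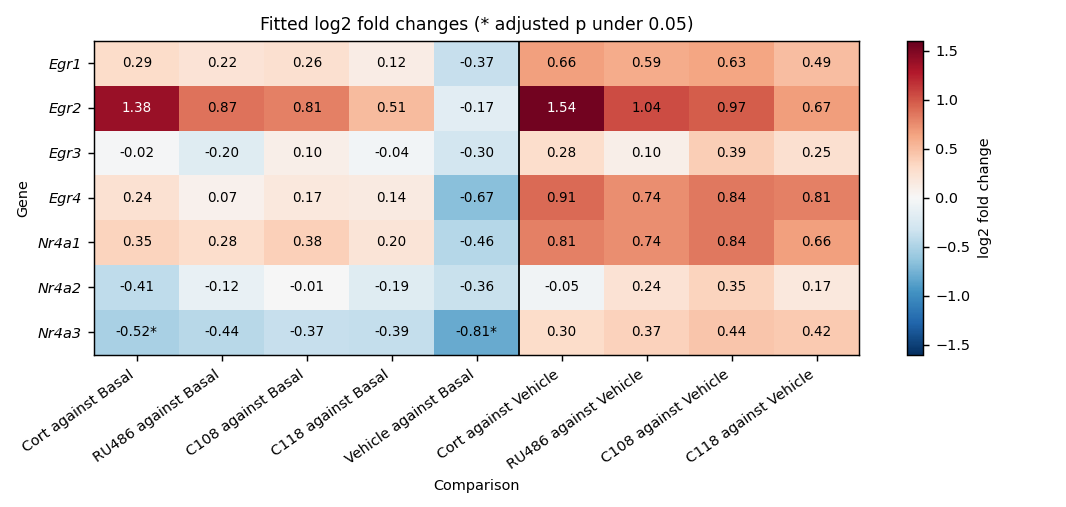
Fitted log2 fold changes of the 7 genes (rows) in Cort, RU486, C108, C118 and Vehicle against Basal and in the 4 ligands against Vehicle (columns), with red for higher, blue for lower and an asterisk for an adjusted p under 0.05 in edgeR. Only Nr4a3 carries an asterisk, in Cort (-0.52) and Vehicle (-0.81) against Basal, while the columns against Vehicle are positive but for Nr4a2 in Cort (-0.05).

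The ligand groups were compared with Vehicle to ask what receptor ligands changed after conditioning. Fitted means were higher under each ligand for all 7 genes, except Nr4a2 under Cort (log2 fold change -0.05). Medians over the 7 genes were 0.66 in Cort, 0.59 in RU486, 0.63 in C108 and 0.49 in C118 on the log2 scale, beside medians over all tested genes between 0.00 and 0.01. No member passed in edgeR, DESeq2 or limma-voom in any of these 4 comparisons, which share the 4 Vehicle libraries. In edgeR 0.00598% of all tested genes passed for Cort, 0% for RU486, 0.215% for C108 and 0% for C118. At an unadjusted p under 0.05 there were 4 members for Cort, 4 for RU486, 5 for C108 and 3 for C118, beside 11.6%, 8.16%, 17.4% and 8.01% of tested genes.

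Nr4a1 had a mean above that of Vehicle under every ligand, with some overlap. It had 90.4, 40.9, 32.6, 61.7 and 76.7 CPM in Cort 4, 11, 17, 30 and 36. In RU486 6, 12, 19, 25 and 32 it had 68.3, 37.0, 71.5, 61.5 and 48.98 CPM. In C108 8, 21, 26, 34 and 39 it had 50.4, 66.5, 92.6, 56.6 and 43.2 CPM. Each of these groups had 1 or 2 libraries inside the Vehicle range of 27.99 to 43.7 CPM. In C118 7, 13, 20, 33 and 38 it had 58.2, 55.8, 59.2, 34.7 and 64.6 CPM, and C118 33 alone was inside that range. The log2 fold change against Vehicle was 0.81 ± 0.26 in Cort (SE, adjusted p = 0.234, edgeR), 0.74 ± 0.26 in RU486 (0.405), 0.84 ± 0.26 in C108 (0.125) and 0.66 ± 0.26 in C118 (0.502).

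Egr4 gave log2 fold changes against Vehicle of 0.91 ± 0.28 in Cort, 0.74 ± 0.28 in RU486, 0.84 ± 0.28 in C108 and 0.81 ± 0.28 in C118 (SE, adjusted p = 0.15 to 0.443, edgeR). In C108 its 5 libraries (13.5 to 20.1 CPM) all lay above the 4 Vehicle libraries (5.83 to 12.3 CPM). Egr3 likewise had 40.2 to 47.9 CPM in C108, against 21.9 to 39.6 CPM in Vehicle (log2 fold change 0.39 ± 0.16, SE, adjusted p = 0.203, edgeR). Over all tested genes 1.81% lay wholly higher in C108 in this way.

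Egr1 had 221.4, 97.3, 77.5, 132.4 and 206.2 CPM in Cort 4, 11, 17, 30 and 36, against 91.0, 89.7, 131.5 and 59.9 CPM in Vehicle 3, 16, 23 and 29. Cort 4 and 36 were far above the Vehicle libraries and the other 3 Cort libraries were among or next to them. Its log2 fold changes against Vehicle were 0.66 in Cort, 0.59 in RU486, 0.63 in C108 and 0.49 in C118 (adjusted p = 0.227 to 0.666, edgeR). Egr2 averaged 1.88 ± 1.63 CPM in Cort, 1.34 ± 0.768 in RU486, 1.27 ± 0.958 in C108 and 1.03 ± 0.279 in C118 (SD, n = 5 each), against 0.642 ± 0.173 CPM in Vehicle (SD, n = 4). The largest of its differences, 1.54 in Cort on the log2 scale, had a 95% interval of 0.41 to 2.67 and did not pass (adjusted p = 0.278, edgeR). Without Cort 4 it was 0.87 (adjusted p = 0.499). Nr4a3 gave 0.30 in Cort, 0.37 in RU486, 0.44 in C108 and 0.42 in C118 as log2 fold changes against Vehicle (adjusted p = 0.157 to 0.486, edgeR). For Nr4a2 they were 0.24 in RU486, 0.35 in C108 and 0.17 in C118 (adjusted p = 0.312 to 0.85, edgeR).

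Markers of several regions moved with these comparisons. The thalamus markers had medians of -0.40 in Cort, -1.11 in RU486, -1.52 in C108 and -1.29 in C118 as log2 fold changes against Vehicle, and Rora passed as lower in C108. Their summed level in Cort libraries was 289.0 to 567.6 CPM, RU486 libraries had 223.6 to 384.6 CPM, C108 libraries 232.9 to 268.8 CPM and C118 libraries 257.8 to 343.7 CPM, against 269.8 to 1124 CPM in Vehicle. The choroid plexus markers had medians of 0.10 in Cort, 1.37 in RU486, -1.69 in C108 and -1.17 in C118, with summed levels of 6752 CPM in RU486 6, 4063 CPM in RU486 25 and 2607 CPM in Cort 4, against 264.9 to 1708 CPM in Vehicle. In C108 the CA1 markers had a median of 0.32, with 8 of 12 at an unadjusted p under 0.05, and 2 neocortex markers were lower (Foxp2 and Ccn2). Without Vehicle 16 and 29 the log2 fold change of Nr4a3 against Vehicle was 0.09 in Cort, 0.17 in RU486, 0.24 in C108 and 0.22 in C118. The part of the region markers in the other members' differences from Vehicle was not tested beyond the covariate fits.

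The 4 ligands were compared with each other in 6 pairs, with doses not given, to ask whether different receptor ligands left these genes at different levels. No member differed in edgeR, DESeq2 or limma-voom in any pair, and the smallest adjusted p was 0.841 (C108 against RU486, edgeR). At an unadjusted p under 0.05 there was 1, Nr4a2 in Cort against C108. It had 46.3, 28.8, 28.2, 40.7 and 51.8 CPM in Cort 4, 11, 17, 30 and 36, against 44.1, 51.6, 68.6, 50.1 and 44.3 CPM in C108 8, 21, 26, 34 and 39. The groups overlapped, and the log2 fold change was -0.40 (95% interval -0.75 to -0.05, adjusted p = 0.946, edgeR). In edgeR 0% of tested genes passed for this pair and 4.88% had an unadjusted p under 0.05. Over all tested genes 0.0538% passed for Cort against RU486 and 0% in each of the other 5 pairs.

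Cort was also set against the antagonist RU486. The largest differences of that pair were those of Egr2, at a log2 fold change of 0.50 (95% interval -0.47 to 1.47), Nr4a2, at -0.29 (-0.64 to 0.06), and Egr3, at 0.18 (-0.12 to 0.48). The log2 fold change of Cort against RU486 was 0.07 for Nr4a1 (95% interval -0.42 to 0.57), 0.07 for Egr1 (-0.43 to 0.58), 0.16 for Egr4 (-0.36 to 0.69) and -0.07 for Nr4a3 (-0.36 to 0.22). No member passed in this pair, and differences as large as the ends of these intervals remained compatible with the values of 5 libraries per group. By contrast Fkbp5, a direct receptor target that encodes a receptor chaperone, had 166.8 ± 9.91 CPM in Cort and 113.5 ± 8.28 CPM in RU486 (SD, n = 5 each, log2 fold change 0.56, adjusted p = 0.00557, edgeR). For C108 against C118 the members' log2 fold changes were between 0.02 and 0.30. The widest interval of that pair was that of Egr2, -0.73 to 1.33, and the narrowest that of Nr4a3, -0.27 to 0.31. Among the 5 conditioned groups together no member differed in the edgeR F test or in limma-voom (adjusted p = 0.528 to 0.738, edgeR), with 0.108% of tested genes past the threshold. At an unadjusted p under 0.05 there were 2, Nr4a1 (0.0326) and Egr4 (0.0368), beside 8.53% of tested genes.

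Libraries of the same group differed widely in these genes. The SD within groups was 0.41 for Egr1, 0.41 for Nr4a1 and 0.45 for Egr4 on the log2 CPM scale. These stood at percentiles 99.6, 99.2 and 98.0 of genes with from 0.5 to 2 times their level. Nr4a2, Egr2, Nr4a3 and Egr3 followed at percentiles 96.2, 95.5, 93.5 and 92.9. Nr4a1 had a coefficient of variation of 39.9% in Cort, 24.9% in RU486, 31.0% in C108, 21.1% in C118 and 21.6% in Vehicle, against 3.62% in Basal. The difference in spread between groups was not tested.

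The libraries that were high were mostly high for several genes at once. In RU486 12 all 7 genes were the lowest of the group. C118 38 had the highest value of its group for 6 genes, C108 26 for 5, Cort 36 and Vehicle 23 for 4 each. C118 33 and Cort 17 had the lowest of their group for 5 genes each, and Vehicle 29 and C108 8 for 4 each. In Basal, Basal 27 was lowest for 5 genes and Basal 14 highest for 4. Vehicle 29 was also the highest Vehicle library for Nr4a2 (55.2 CPM) and Egr2 (0.870 CPM) while being the lowest for Egr1, Egr3, Egr4 and Nr4a1.

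**Figure D3:**
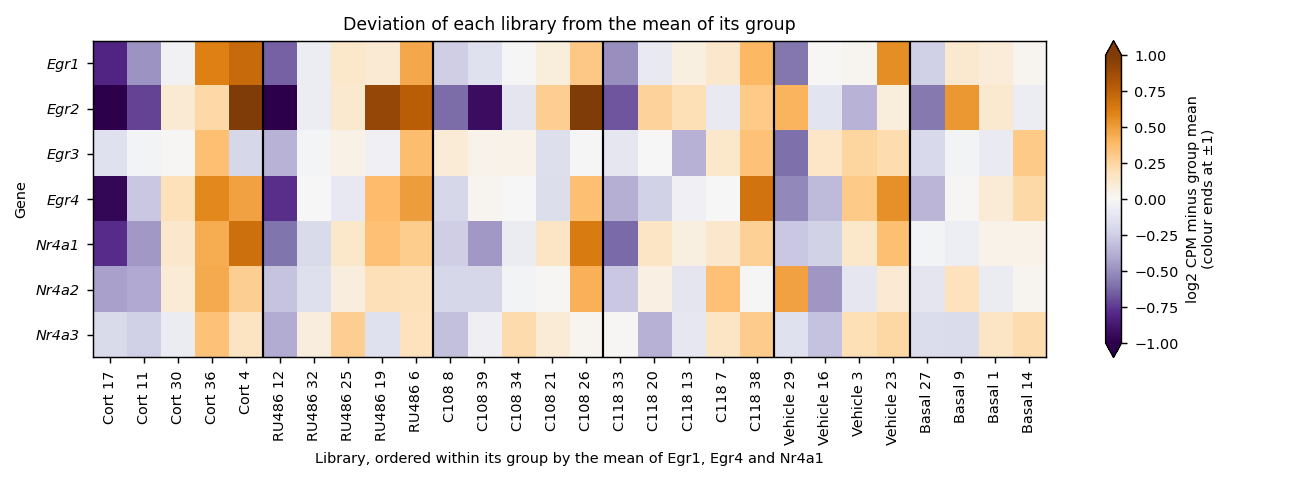
Deviation of log2 CPM from the mean of the library's own group for the 7 genes (rows) in 28 libraries (columns, ordered within each group by the mean of Egr1, Egr4 and Nr4a1), with orange for above and purple for below. In RU486 12 the whole column is purple, and in Vehicle 29 Nr4a2 and Egr2 are orange while Egr1, Egr3, Egr4 and Nr4a1 are purple.

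Pairs of genes were correlated across the 28 libraries after the mean of each group was taken out. Of the 21 pairs, 17 were correlated at an adjusted p under 0.05 (two-sided permutation within groups, 100000 draws, adjusted over 21 pairs). The share of pairs among other genes that pass in these libraries was not computed. The count is therefore not shown to be particular to these families. Libraries of a group also differed in region markers, whose part in the correlations was not tested. The closest pairs were Egr1 with Egr4 (Pearson r = 0.90, Spearman rho = 0.83) and Egr1 with Nr4a1 (r = 0.90, rho = 0.87), each at the smallest permutation p the draws can give (1e-05; adjusted p = 5.25e-05 for r and 7e-05 for rho). Without the 2 libraries farthest from the median of Egr1, Vehicle 29 and Cort 4, r was 0.90 and 0.89. Egr2 with Nr4a1 gave r = 0.85 and rho = 0.76 (permutation p = 2e-05 and 0.00011, adjusted p = 8.4e-05 and 0.000462), and r = 0.80 without Cort 4 and RU486 12. Egr4 with Nr4a1 gave r = 0.83 and rho = 0.78 (permutation p = 1e-05 and 3e-05, adjusted p = 5.25e-05 and 0.000157), and r = 0.82 without Vehicle 16 and 29.

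The 4 closest pairs were thus 1 within the Egr family and 3 of an Egr gene with Nr4a1. Nr4a1 correlated with Egr1 (r = 0.90) more closely than with Nr4a3 (r = 0.54, rho = 0.56, permutation p = 0.00849 and 0.00726, adjusted p = 0.0149 and 0.0117, r = 0.57 without Cort 4 and C108 26). The difference between these 2 coefficients was not tested. Egr3 stood apart from Egr2 (r = 0.11, rho = 0.00, permutation p = 0.56 and 0.983, adjusted p = 0.588 and 0.983, r = 0.05 without Cort 4 and RU486 12) and from Nr4a2 (r = 0.06, rho = 0.16, permutation p = 0.802 and 0.482, adjusted p = 0.802 and 0.506, r = 0.34 without Vehicle 29 and RU486 12). Egr2 with Nr4a3 (r = 0.38, rho = 0.32, permutation p = 0.076 and 0.14, adjusted p = 0.084 and 0.155) and Egr3 with Nr4a1 (r = 0.36, rho = 0.34, permutation p = 0.0716 and 0.0988, adjusted p = 0.0835 and 0.115) were the other pairs that did not pass. They gave r = 0.16 and r = 0.21 without their 2 farthest libraries.

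**Figure D4:**
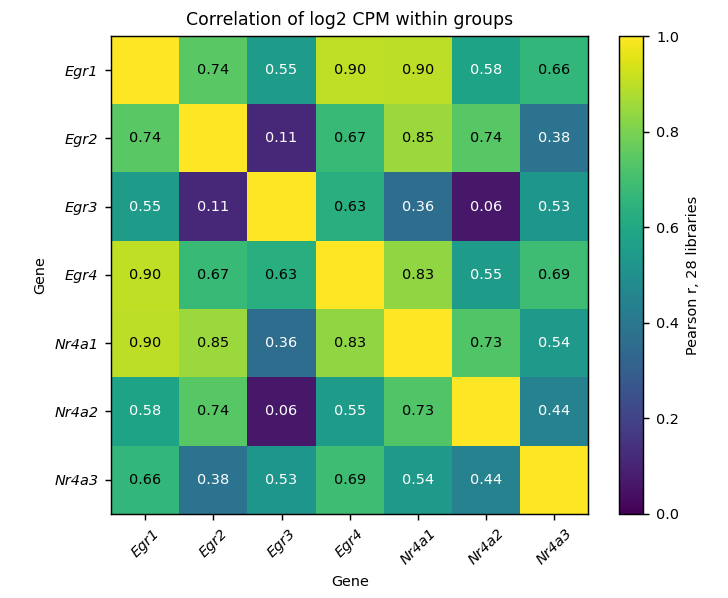
Pearson r of log2 CPM, centred within groups, for each pair of the 7 genes (both axes) over 28 libraries, with yellow for high values. Egr1, Egr4 and Nr4a1 form a block of values from 0.83 to 0.90, and Egr3 is near 0 with Egr2 (0.11) and Nr4a2 (0.06).

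Among 14578 other genes with a mean of at least 1 CPM, those whose deviations within groups were most like the mean of the 4 Egr genes over 28 libraries were Junb (r = 0.91), Arc (0.84), Npas4 (0.83), Zfp703 (0.83) and Fos (0.83). For the mean of the 3 Nr4a genes they were Junb (0.82), Npas4 (0.80), Fos (0.80), Arc (0.80) and Rubcn (0.75). Junb and Fos encode AP-1 subunits, Arc a synaptic protein and Npas4 a neuronal activity factor. These genes were ranked for likeness and the values are a description, in which each pair shares its library and depth. Fkbp5 gave -0.03 with the Egr mean and -0.01 with the Nr4a mean.

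The ratio of Nr4a1 to Nr4a3 counts within a library needs no scaling between libraries, and is given as a description because it was chosen after the values were seen. Its log2 value in Cort libraries was -0.76 to 0.36, RU486 libraries had -0.52 to 0.25, C108 libraries -0.65 to 0.37, C118 libraries -1.01 to 0.14 and Vehicle libraries -0.74 to -0.48, against -1.11 to -0.79 in Basal. Apart from C118 33 (-1.01), every conditioned library lay above every Basal library. Per kilobase of exon, Nr4a1 was above Nr4a3 in 23 of 24 conditioned libraries and in 0 of 4 Basal libraries. That split depends on the merged exon lengths used (3509 bases for Nr4a1 and 5987 for Nr4a3). Libraries lay close to it on both sides, with log2 count ratios of -0.79 in Basal 27 and -0.76 in Cort 17.

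**Figure D5:**
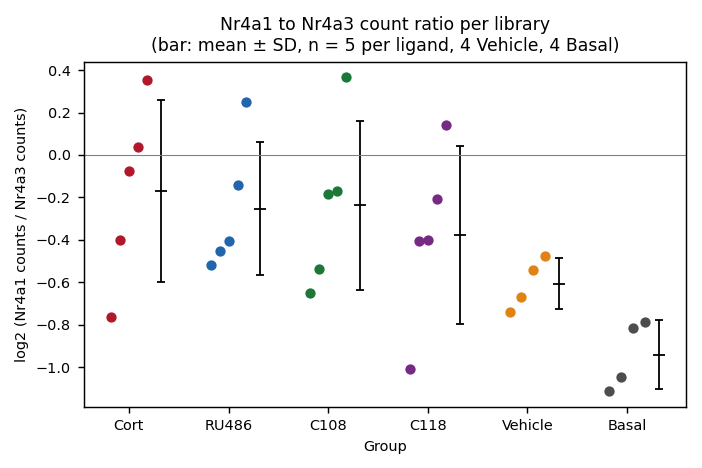
Log2 ratio of Nr4a1 to Nr4a3 counts (y axis) in each library of the 6 groups (x axis), with points for libraries and black bars for the mean ± SD (n = 5 per ligand group, 4 Vehicle and 4 Basal). The 4 Basal libraries lie between -1.11 and -0.79 and the conditioned libraries above them, apart from C118 33 at -1.01.

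Of 33 other immediate early genes tested, 1 passed in each direction in Vehicle against Basal, a share close to the 4.11% of all tested genes (median log2 fold change -0.02 beside 0.00 over all tested genes). Bdnf, a neurotrophin gene and CREB target, had 43.9 ± 9.16 CPM in Vehicle, against 67.8 ± 5.81 CPM in Basal (SD, n = 4 each, log2 fold change -0.63, adjusted p = 0.00618, edgeR). Arl4d, a small GTPase, had 29.98 ± 4.58 CPM in Vehicle and 14.1 ± 5.06 CPM in Basal (SD, n = 4 each, log2 fold change 1.09, adjusted p = 0.00101, edgeR). Averaged over the conditioned groups, 2 were higher, Arl4d (1.04) and Gadd45b (0.42), and 3 lower, among them Bdnf (-0.44) and Plk3 (-0.45, adjusted p = 8.39e-05 to 0.0376 for the 4 named, edgeR), beside 11.2% of all tested genes called. In Cort against Basal 5 were higher, among them Arl4d, Trib1, Maff and Csrnp1, and 0 lower. Over all tested genes 6.27% passed there, 2.84% as higher. Maff was at a low level, with means of 1.08 CPM in Cort and 0.392 CPM in Basal. Fos, Arc and Npas4 did not pass: Fos averaged 5.36 ± 1.32 CPM in Vehicle and 5.79 ± 2.65 CPM in Basal (SD, n = 4 each, adjusted p = 0.937, edgeR), Arc gave a log2 fold change of -0.39 (adjusted p = 0.637) and Npas4 one of -0.47 (adjusted p = 0.626).

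Of 24 regulators upstream of the 2 families, 1 passed in Vehicle against Basal, as lower (median log2 fold change -0.08). It was Mapk3, which encodes the kinase ERK1, at 117.8 ± 4.66 CPM in Vehicle and 143.1 ± 3.84 CPM in Basal (SD, n = 4 each, log2 fold change -0.28, adjusted p = 0.0167, edgeR). Averaged over the conditioned groups, Mapk3 was again lower (-0.19, adjusted p = 0.0146), and Mrtfa, a cofactor of serum response factor, and Elk4, its ternary complex partner, were higher (log2 fold changes 0.37 and 0.25, adjusted p = 0.0314 and 0.0396, edgeR). Of 12 partners and corepressors, among them Nab1 and Nab2, which restrain Egr proteins, and the retinoid X receptors that pair with Nr4a1 and Nr4a2, edgeR called 0 in Vehicle against Basal, and 4 had an unadjusted p under 0.05, beside 18.1% of all tested genes. Of 16 genes linked to Egr or Nr4a factors as targets, 1 was higher in Vehicle than in Basal, Mthfd2, a mitochondrial folate enzyme (14.4 ± 1.6 CPM in Vehicle and 6.68 ± 0.794 CPM in Basal, SD, n = 4 each, adjusted p = 4.02e-05, edgeR), and 1 was lower, Bdnf. In the ligand groups against Vehicle 0 genes of these 4 lists passed in edgeR. Of the 33 other immediate early genes, 12 had an unadjusted p under 0.05 in Cort, 4 in RU486, 6 in C108 and 4 in C118. Over all tested genes the shares were 11.6% in Cort, 8.16% in RU486, 17.4% in C108 and 8.01% in C118. Of 16 glucocorticoid receptor targets 13 were higher in Vehicle than in Basal (median 0.89), among them Fkbp5 with 130.2 ± 12.96 CPM in Vehicle and 67.5 ± 9.53 CPM in Basal (SD, n = 4 each, log2 fold change 0.95, adjusted p = 1.8e-06, edgeR).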

How the data were processed

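Total RNA from dorsal hippocampus of 28 libraries was sequenced from stranded, mRNA-enriched, paired-end libraries, per the labels' protocols. The authors deposited unnormalized counts for each Ensembl gene. HTSeq 0.6.1 and mm10 are named in the submitters' processing notes. Not given in the sources used here are the aligner, HTSeq's strand setting and which annotation was counted. The labels name no batch. Summary rows that name no gene were left out, of which unassigned reads were 5.55% to 9.26% and ambiguous reads 1.22% to 3.28% of gene counts. Of 50686 genes, 310 had no symbol.

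The counts were filtered with filterByExpr (minimum count 10, minimum total 15), scaled by TMM and fitted with the quasi-likelihood method of edgeR 4.0.16 in R 4.3.3 (robust, 22 residual degrees of freedom), all 28 libraries in 1 fit. Tests were two-sided, with Benjamini-Hochberg adjustment over 16735 genes and a threshold of 0.05. SE was computed as log2 fold change over the root of F. Log2 CPM used a prior count of 2. On simulated Vehicle against Basal data of the 16735 genes, 55 of 100 changes of 0.5 and 87 of 100 changes of 1 (log2) were called, with 8 false calls. The simulated spread followed the trend of all genes with level. The members' own biological coefficients of variation were from 0.155 (Nr4a3) to 0.507 (Egr2). Their spread stood at percentiles 92.9 to 99.6 of genes of like level, so these rates are too high for the members. At 16.2 to 20.3 M counts per library, the spread between libraries (common biological coefficient of variation 0.133) limited precision more than counting. Egr2 had the fewest counts, 5 to 91 per library, and also the highest biological coefficient of variation of the members (0.507). Within groups every pair of libraries differed by more than counting noise (lowest chi-square per degree of freedom 5.94). Alternatives were RLE scaling, no filter, a minimum count of 50, DESeq2 1.42.0, limma-voom (limma 3.58.1), only the 2 groups in the fit, region marker scores as covariates, and leaving out libraries.

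The members, gene lists, tests and alternatives were chosen with earlier results of these data known. The named genes were the 7 members, the 5 genes most like each family's mean, up to 4 called genes of each list, and Fkbp5, Fos, Arc and Npas4. Promoter windows and motifs were read by a search of letters on both strands of RefSeq sequence of GRCm38.p6. Older symbols of the lists were matched through RefSeq synonyms. The result of 1 marker gene is not reported here.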

Additional observations from a re-analysis of the deposited data

Results flagged for a closer look

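Of 42 combinations of gene and group, 3 held a library that stood apart from the others of its group by Dixon's criterion, which chance alone meets in about 1 in 20 groups. Egr2 was at 4.65 CPM in Cort 4, the highest of 5 Cort libraries, against 1.74 CPM in the next, Cort 36. Egr3 was at 21.9 CPM in Vehicle 29, the lowest of 4 Vehicle libraries, against 36.7 CPM in the next, Vehicle 16. Egr4 was at 23.6 CPM in C118 38, the highest of 5 C118 libraries, against 14.8 CPM in the next, C118 7.

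Cort 4 was also the highest Cort library for Egr1 (221.4 CPM) and Nr4a1 (90.4 CPM), and had 290.5 CPM of Arc, against 61.0 to 129.6 CPM in the other Cort libraries. Its summed choroid plexus markers were 2607 CPM, against 200.9 to 1209 CPM in the other Cort libraries. Vehicle 29 had the lowest dentate gyrus marker sum (1016 CPM) and the highest neocortex marker sum (829.2 CPM) of all libraries. Without Cort 4 the log2 fold change of Egr2 in Cort against Basal was 0.72, beside 1.38 with it, and against Vehicle 0.87, beside 1.54. Without Vehicle 29 that of Egr3 in Vehicle against Basal was -0.13, beside -0.30. None of these differences passed with or without the library.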

How the results depend on the processing

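Nr4a3 kept its lower level against Basal in each conditioned group under each alternative run, and the number of members called (1 in Vehicle against Basal, in Cort against Basal, in the average of conditioned groups and among the 6 groups) was 0 under these settings: with dentate gyrus and CA1 scores as covariates in all 4, without Vehicle 16 and 29 in Vehicle against Basal and among the 6 groups, with no filter in Cort against Basal and among the 6 groups, and with thalamus and neocortex scores among the 6 groups. DESeq2 called 1 in RU486 against Basal. Leaving out each library in turn gave 0 to 1 called members in Cort against Basal, the average and the 6 groups. Nr4a3 did not pass among the 6 groups on leaving out Vehicle 16 (adjusted p = 0.0781), Vehicle 29 (0.0747), Cort 30 (0.0503), Basal 1 (0.129), Basal 14 (0.144) or Basal 27 (0.0501), with no filter (0.0853), with thalamus and neocortex scores (0.0527), with dentate gyrus and CA1 scores (0.456) and without Vehicle 16 and 29 (0.158). The cause was not tested.

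The sign of uncalled log2 fold changes turned as follows (adjusted p of 0.517 or more). With thalamus and neocortex scores, Egr4 was -0.068 in Cort, -0.25 in RU486, -0.14 in C108 and -0.25 in C118 against Basal, Egr3 -0.028 and Nr4a2 0.010 in C108, Egr1 -0.077 in C118 and -0.058 in the average, and Nr4a2 0.047 in Cort against Vehicle. With dentate gyrus and CA1 scores, Egr3 was 0.052 in Vehicle, 0.10 in C118 and 0.053 in the average against Basal, Egr4 0.27 in the average, Nr4a2 0.041 in RU486 against Basal and 0.0078 in Cort against Vehicle, and Egr3 -0.079 in Cort and -0.079 in RU486 against Vehicle. Without Vehicle 16 and 29, Egr3 was -0.10 in RU486 against Vehicle and Egr4 0.066 in the average. Leaving out 1 library at a time gave -0.35 to 0.05 for Egr2 in Vehicle, -0.12 to 0.093 for Egr3 in Cort, -0.051 to 0.23 for Egr4 in RU486, -0.13 to 0.052 for Nr4a2 in C108, -0.13 to 0.062 for Egr3 and -0.063 to 0.23 for Egr4 in C118, -0.15 to 0.019 for Egr3 and -0.11 to 0.069 for Egr4 in the average against Basal, and -0.19 to 0.13 for Nr4a2 in Cort and -0.066 to 0.18 for Egr3 in RU486 against Vehicle.

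Pairs of members with r over 0.5 numbered 16, and 14 on raw CPM and 15 without the 2 farthest libraries. No paired analysis was run because the labels name no pairs or blocks. Sorted by the number in their names, the libraries repeat a fixed order of groups: Basal, Vehicle, Cort, RU486, C118, C108. Some rounds lack a group, and the last one (Cort 36, C118 38 and C108 39) held no Basal or Vehicle library. The labels do not say whether these rounds were handled as blocks, and no fit took them as such. Reads of low alignment quality were 0.475% to 0.726% of gene counts up to number 14 and 0.172% to 0.301% from number 26 on. No fit took this order into account, and its part in the differences was not tested. DESeq2 was not run for the average or the F tests. Egr2, with 5 to 91 counts per library, carries counting error on top of a biological coefficient of variation of 0.507.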
